A study of Mus musculus with 278 samples.

Results

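Integrin subunits, the transmembrane chains with which cells hold on to their matrix, were examined in single mouse cells from keratinocyte co-cultures. The members were 10 genes chosen by name: the beta subunits Itgb1, Itgb4, Itgb5 and Itgb6 and the alpha subunits Itga2, Itga3, Itga5, Itga6, Itga11 and Itgav. Of these, 9 were among the 14145 genes of the expression table, and Itgb5 was not analysed here. The cultures mixed 9 parts of wild-type cells with 1 part of K14ΔNβ-cateninER cells, both grown from adult dorsal skin. The transgenic cells carry, under the keratin 14 promoter, a stabilised beta-catenin that is switched on by 4-hydroxy-tamoxifen (4OHT). Treated co-cultures received 200 nM 4OHT for 24 h and untreated ones received DMSO, so that untreated wells held the transgenic cells too. Library names fell into 2 series, called AG and GHA501A, whose meaning the labels do not give. There were 66 untreated and 64 treated AG cells, and 71 untreated and 69 treated GHA501A cells, 270 in all. Another 8 AG cells carried a name prefix and a treatment label that conflict, and they entered only alternative fits. Transgenic cells were not told apart from wild-type cells here. The study identified them from reads of the transgene and removed them before its own analysis. Whether they remain among the cells used here was not determined.

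An integrin works as a pair of 1 alpha and 1 beta chain, and the alpha chain largely sets which matrix protein is bound. In basal keratinocytes, alpha6 with beta4 forms the core of the hemidesmosome, which anchors the keratin skeleton to laminin-332 in the basement membrane. Beta1 pairs with many alpha chains: alpha3 for laminin, alpha2 and alpha11 for collagen, and alpha5 for fibronectin. Alphav pairs with several beta chains, beta1, beta5 and beta6 among them. With beta6, alphav is known in epithelia for the activation of latent TGF-beta.

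The labels call every cell a keratinocyte, and this was checked against marker genes. A score per cell, the mean log2(TPM + 1) of 7 keratinocyte markers minus that of 4 fibroblast collagen and matrix genes, was cut at 1 and -1. TPM is a read level corrected for transcript length that sums to 1000000 in each cell. All 130 AG cells were keratinocyte-like by this score, with a median summed level of the keratinocyte markers of 9597 TPM in untreated and 9869 TPM in treated cells. In GHA501A, 62 untreated and 56 treated cells were fibroblast-like, 9 and 12 were keratinocyte-like, and 1 treated cell was unnamed. The summed keratinocyte markers had a median of 11.7 TPM in the fibroblast-like cells (range 0 to 1989) and 4597 TPM in the GHA501A keratinocyte-like cells (range 903 to 20972). The summed fibroblast markers had medians of 1554 TPM (range 141.1 to 19795) and 31.6 TPM (range 6.46 to 491) in the same classes. Of 8 fibroblast markers listed, 4 were in the expression table. In fibroblast-like cells Col1a1 had a median of 1146.8 TPM, and Col1a2 and Col3a1 exceeded 1 TPM in 98.3% and 94.9%. Dcn did so in 27.97%, with a median of 0. Krt14 exceeded 1 TPM in 74.58% of these cells, at a median of 3.70 TPM. The immune marker Lyz2 did so in 88.98%, against 71.4% of GHA501A keratinocyte-like cells. By this score the label was at odds with the markers in the 62 and 56 fibroblast-like GHA501A cells. These classes are ranges of a score rather than types. In all, 9 cells lay within 1 of a cut. The number of genes with TPM over 1 ranged from 2538 to 7592 per cell, with a median of 6288, and 5 AG cells had fewer than 4000. The sequencing depth of a cell cannot be read from TPM, which leaves the error of low values unknown.

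A promoter window is shown for Itga5 and Itgb6, which were called between series. Another is shown for Itga3, an integrin chain that binds laminin, whose differences did not pass. Each window runs from 250 bases before to 50 after a RefSeq gene start on GRCm38.p6, 5′ to 3′ on the gene's strand. Capitals mark GGGCGG on either strand (printed CCGCCC on the other), the core of the SP1 motif. Itga5 and Itga3 hold it and Itgb6 does not. These letters occur in 35.7% of 32851 RefSeq promoters of the same length, and a match is a description of the sequence only.
Itga5 (chr15:103366742-103367041, minus strand): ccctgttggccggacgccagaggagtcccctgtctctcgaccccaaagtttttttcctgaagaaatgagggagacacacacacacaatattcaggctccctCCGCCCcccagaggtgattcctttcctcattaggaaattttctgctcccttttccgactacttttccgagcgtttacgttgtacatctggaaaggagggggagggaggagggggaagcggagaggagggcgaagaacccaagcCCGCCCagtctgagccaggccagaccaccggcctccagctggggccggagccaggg
Itga3 (chr11:95076665-95076964, minus strand): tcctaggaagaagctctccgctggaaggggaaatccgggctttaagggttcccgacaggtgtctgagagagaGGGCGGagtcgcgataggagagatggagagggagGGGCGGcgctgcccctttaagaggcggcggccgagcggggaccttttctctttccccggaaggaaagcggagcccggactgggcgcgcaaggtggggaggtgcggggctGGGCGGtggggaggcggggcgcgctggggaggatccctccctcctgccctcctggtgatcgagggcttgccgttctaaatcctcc
Itgb6 (chr2:60722554-60722853, minus strand): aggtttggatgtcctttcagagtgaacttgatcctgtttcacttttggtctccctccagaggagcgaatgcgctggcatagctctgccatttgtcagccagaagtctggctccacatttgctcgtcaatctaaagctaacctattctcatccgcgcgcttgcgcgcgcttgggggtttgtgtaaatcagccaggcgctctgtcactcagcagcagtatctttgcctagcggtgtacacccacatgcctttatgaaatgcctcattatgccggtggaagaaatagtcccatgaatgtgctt
The Itga5 window has 2 matches and the Itga3 window has 3. The AP-1 motif TGANTCA, found in 7.81% of all promoters on either strand, and TATAAA, found in 13.6%, had no match in these 3 windows. RefSeq lists a second start for Itga3 and for Itgb6, and the second Itga3 window (chr11:95069149-95069448) holds 1 AP-1 and 1 SP1 match. GC content was 58.7% for Itga5, 66.7% for Itga3 and 50.3% for Itgb6, against a median of 52.7% over all promoters.

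Itgb1 (chromosome 8, 128685654 to 128733200, plus strand, protein coding, GRCm38), the shared beta chain, was the most widely detected subunit. It exceeded 1 TPM in 66 of 66 untreated and 63 of 64 treated AG cells, and in all 140 GHA501A cells. Untreated AG cells ranged from 29.5 to 2287 TPM with a median of 243, and treated AG cells from 0 to 1106 with a median of 165.98. Untreated GHA501A cells ranged from 14.5 to 495 TPM with a median of 118.6, and treated ones from 1.05 to 1122 with a median of 98.2. The distributions overlapped in every pair of sets. Over the 2 sets of a series, the mean was 288 ± 96.1 TPM in AG and 154.3 ± 23.4 TPM in GHA501A (SD, n = 2 sets). Itgav (chromosome 2, 83724397 to 83806916, plus strand), the alpha chain of the vitronectin receptors, was nearly as widespread, in all but 1 of 130 AG and all but 1 of 140 GHA501A cells. Its mean was 53.4 ± 7.86 TPM in AG and 47.04 ± 0.247 TPM in GHA501A (SD, n = 2 sets), the smallest difference between series among the members on the log2 scale. Of the exonic bases of Itgav, 5.90% overlap a transcript annotated on the other strand, and the counting is not stated to use strand.

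Itga6 (chromosome 2, 71745616 to 71858416, plus strand), the laminin-binding partner of beta4 and beta1, was a feature of the keratinocyte-like cells of both series. In untreated AG cells the lowest level was 0, the median 72.8 and the highest 469 TPM, and in treated AG cells these were 0, 58.2 and 501. In GHA501A the median lay near 1 TPM (0.984 untreated and 1.08 treated), while the highest cells held 198 and 765 TPM. Split by class, GHA501A keratinocyte-like cells had a median of 87.4 TPM (range 12.7 to 765, 21 cells) and fibroblast-like cells 0.674 TPM (range 0 to 74.7). The high GHA501A cells were thus mainly the few keratinocyte-like ones.

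Itga3 (chromosome 11, 95044474 to 95076801, minus strand), a laminin receptor of basal cells, showed the same division by class. It exceeded 1 TPM in 54 of 66 untreated and 53 of 64 treated AG cells. In GHA501A it did so in 21 of 21 keratinocyte-like cells, with a median of 43.2 TPM, and in 26 fibroblast-like cells (22.03%), with a median of 0. One untreated AG cell held 2693 TPM, which is 46.9% of the summed level of its set. Itga2 (chromosome 13, 114833081 to 114932100, minus strand), the collagen receptor chain, was patchier. It exceeded 1 TPM in 35 of 66 untreated and 29 of 64 treated AG cells, in 8 of 21 GHA501A keratinocyte-like cells and in 12 fibroblast-like cells (10.2%). In the treated GHA501A set, 1 cell at 444 TPM made up 52.9% of the summed level.

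Itga5 (chromosome 15, 103344286 to 103366763, minus strand), the fibronectin receptor chain, had the opposite distribution. Its level was 0 at lowest, 3.45 at the median and 837 TPM at highest in untreated AG cells, and 0, 0.818 and 240.5 in treated AG cells. In GHA501A it was 0, 66.5 and 3154 TPM in untreated and 0, 71.3 and 1799 in treated cells. The fibroblast-like cells carried most of this: 97.5% exceeded 1 TPM with a median of 108.05 TPM, against 12 of 21 keratinocyte-like cells with a median of 3.14. The plot of levels by cell shows that Itga5 still reached high values in single keratinocyte-like cells, up to 678 TPM in GHA501A.

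**Figure D1:**
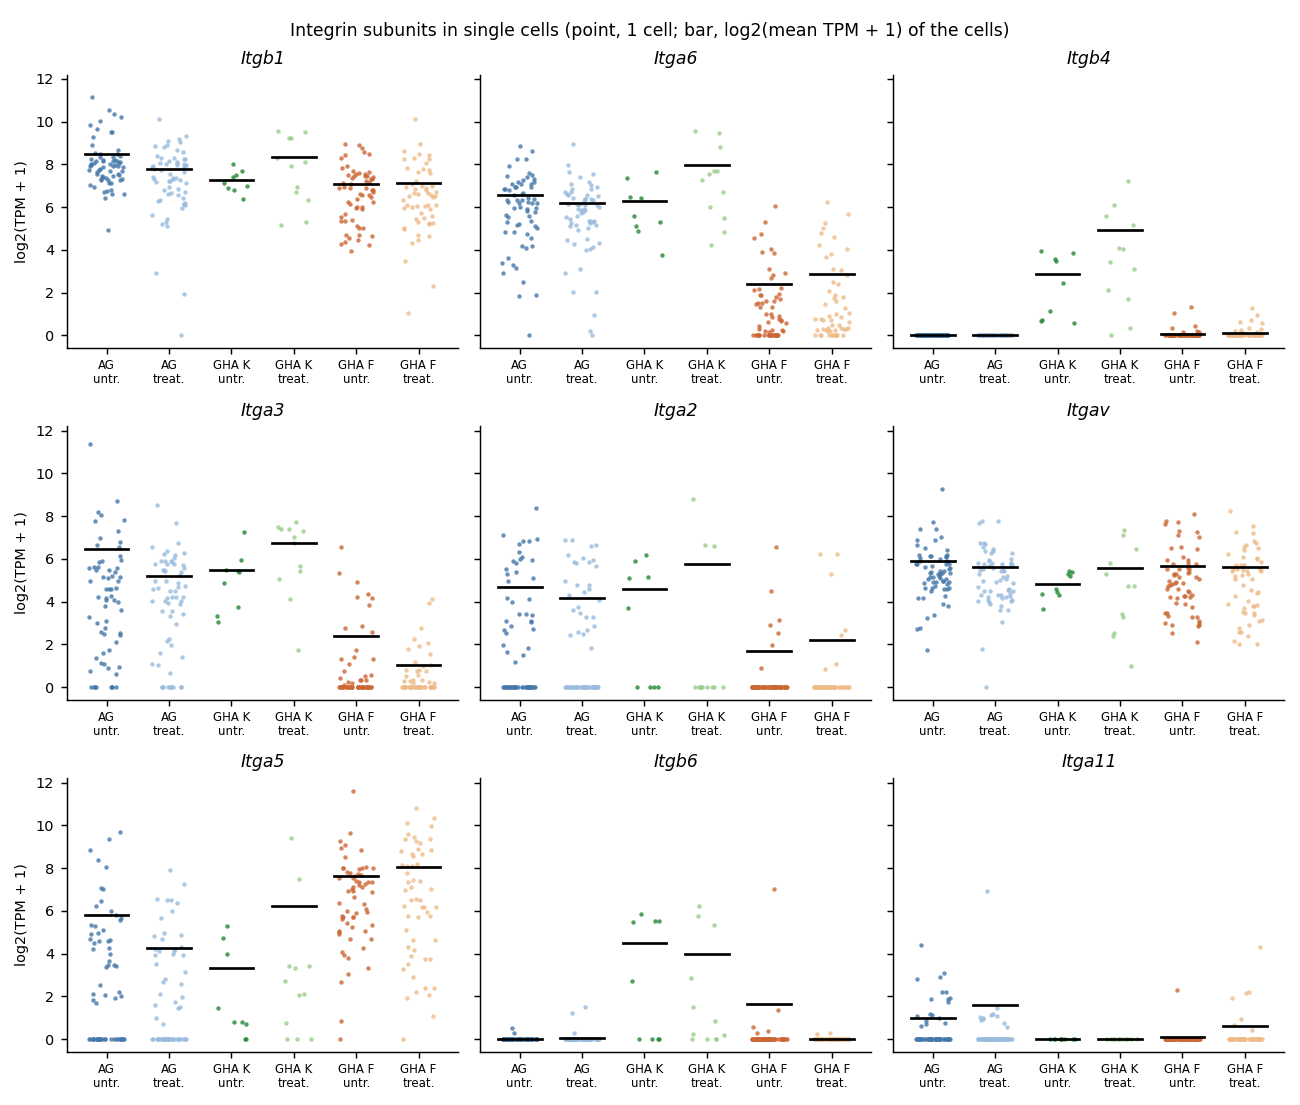
Level of 9 integrin subunits as log2(TPM + 1) (vertical axis) in each cell, by series, treatment and, for GHA501A, class (horizontal axis; K, keratinocyte-like; F, fibroblast-like; untr., untreated; treat., treated). Points are cells and bars are log2 of the mean TPM plus 1. Itga6 and Itga3 are high in the AG and K columns, Itga5 in the F columns, and Itgb4 lies at 0 in every AG cell.

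The remaining members were confined to few cells. Itgb4 (chromosome 11, 115974709 to 116008412, plus strand), the hemidesmosomal beta chain, was listed at 0 in all 130 AG cells. In GHA501A it exceeded 1 TPM in 16 of 21 keratinocyte-like cells (median 9.80, highest 148.4 TPM) and in 3 fibroblast-like cells (2.54%). An exact 0 TPM does not show that a gene was silent, and other genes of wide use were also nearly missing from AG. Ilk, the integrin-linked kinase, exceeded 1 TPM in 1 of 130 AG cells and 97.9% of GHA501A cells, and Plec, the plectin that links beta4 to keratin, in 4 AG cells and all but 1 GHA501A cell. Among 6450 genes with TPM over 1 in more than 50% of GHA501A keratinocyte-like cells, 316 exceeded 1 TPM in fewer than 2% of AG cells. By another count, 35 genes were at 0 in every AG cell analysed and 1394 in every GHA501A cell. With the 8 conflicting cells included, 0 genes were at 0 in every AG cell. Every gene listed was thus seen in some AG cell, so these counts cannot be set against each other. For these reasons no fold is given for Itgb4 against AG, and how far the 2 series were processed alike was not tested. Of the exonic bases of Itgb4, 7.66% overlap a lincRNA on the other strand. Itgb6 (chromosome 2, 60598292 to 60722643, minus strand), the epithelial partner of alphav, exceeded 1 TPM in 2 of 130 AG cells, with a highest value of 1.86 TPM. In GHA501A it did so in 10 of 21 keratinocyte-like and 2 fibroblast-like cells, with 129.9 TPM in 1 fibroblast-like cell that made up 97.8% of the class. Itga11 (chromosome 9, 62677826 to 62783982, plus strand), a collagen receptor chain known from fibroblasts, exceeded 1 TPM in 19 AG cells and in 5 GHA501A cells, all 5 fibroblast-like, and was listed at 0 in all 21 GHA501A keratinocyte-like cells. Its highest value, 120.4 TPM, was in 1 treated AG cell and made up 92.2% of that set.

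Because TPM is per length, subunits can also be ranked within a series, by the mean over 2 sets of log2(mean TPM + 1). In AG the order was Itgb1 (8.14), Itga6 (6.37), Itga3 (5.83), Itgav (5.76), Itga5 (5.02), Itga2 (4.43), Itga11 (1.30) and Itgb6 (0.045). Itgb1 stood above Itga6, and Itga2 above Itga11, by more than the spread between sets, whereas the neighbours from Itga6 to Itga2 did not differ beyond it. In GHA501A the order was Itga5 (7.65), Itgb1 (7.27), Itgav (5.59), Itga6 (4.73), Itga3 (3.85), Itga2 (3.14), Itgb6 (2.16), Itgb4 (1.75) and Itga11 (0.31). Here the mean of Itga5 stood above that of Itgb1 by 0.38 against a spread of 0.36, but this rested on few high cells and on one class. The median cell had 71.04 TPM of Itga5 and 107.3 of Itgb1, and without the highest cell of the untreated set the levels were 7.04 and 7.06. In keratinocyte-like cells Itgb1 came first (7.81) and Itga5 sixth (4.80), and in fibroblast-like cells Itga5 came first (7.85) and Itgb1 next (7.11). Over GHA501A, Itgb1 stood above Itgav, and Itga2 above Itgb6 by 0.98 against 0.95, while the neighbours from Itgav to Itga2 did not differ beyond the spread.

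The first comparison asked whether integrin levels in cells of treated co-cultures differ from those in untreated co-cultures. The cells compared may include transgenic ones. The 4 library sets were the replicates, 2 per condition, with the series as a block, and log2(mean TPM + 1) of each set was fitted with limma across 12355 genes. No member was called: 0 of 9 passed an adjusted p of 0.05 with a difference over 0.5, against a background of 0% of all genes. The adjusted p was 0.998 for every member, and 0 members had an unadjusted p under 0.05, as 459 genes did. Differences ranged from -0.57 (SE 0.56) for Itga5 to 0.70 (SE 0.60) for Itga6, leaving aside Itgb4. The study's methods speak of replicates, but the labels do not say that these sets came from separate cultures or animals, so p-values measure only the spread between these sets. With 2 sets against 2, an exact permutation test could not give a two-sided p under 0.333. With the sets paired within series, as in the fit, an exact sign-flip test over 2 pairs could not give one under 0.5.

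Within each series the treated minus untreated values differed in sign for 6 members. In AG, Itga5 differed by -1.55, Itga3 by -1.26, Itgb1 by -0.69, Itga2 by -0.52 and Itga6 by -0.36 on the log2 scale. In GHA501A the same subunits differed by 0.40, 0.99, 0.31, 1.17 and 1.76. Itgav moved little in either series (-0.30 and -0.01). Single cells weighed on some of these values. Without the highest cell of each set, an alternative chosen after seeing the data, Itga3 in AG differed by -0.61, Itga2 in GHA501A by 0.56, and Itga11 in AG by -0.54 in place of 0.62. The share of keratinocyte-like cells in GHA501A was 12.7% in untreated (95% Wilson interval 6.81 to 22.4%) and 17.4% in treated cells (10.2 to 27.98%), with intervals that overlap, and its part in the values of Itga6, Itga3 and Itga2 was not tested. These intervals cover counting error only.

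The second comparison set GHA501A against AG, with the treatment as a block. Itga5 was higher in GHA501A by 2.63 (SE 0.56, limma adjusted p = 0.030) and Itgb6 by 2.11 (SE 0.37, adjusted p = 0.017) on the log2(mean TPM + 1) scale. These were 2 of 9 members, both higher, against a background of 29% of all genes called and 18.2% called higher (10.8% lower), so the share of members called was below that of all genes. The set means of Itga5 were 54.5 and 17.96 TPM in AG and 173.5 and 230 TPM in GHA501A, and those of Itgb6 were 0.010 and 0.053 against 4.63 and 2.54 TPM. The groups of 2 sets did not overlap for either gene, but the share of all genes without overlap was not counted, so this adds nothing to the calls. The size for Itgb6, near 0 in AG, was 4.77 with a pseudocount of 0.1. Itga3 (-1.98, SE 0.62, adjusted p = 0.080), Itga6 (-1.64, SE 0.60, adjusted p = 0.11), Itga2 (-1.29, SE 0.51, adjusted p = 0.13) and Itgb1 (-0.87, SE 0.40, adjusted p = 0.18) did not pass. With the mean of log2(TPM + 1) over cells in place of log2 of the mean, 5 members passed: Itga5 higher, and Itga6 (-3.50), Itga3 (-2.50), Itga2 (-1.54) and Itgb1 (-0.97) lower, while Itgb6 did not. Without either AG set 0 of 9 members passed (2 and 4 had an unadjusted p under 0.05), Itga5 was also lost without either GHA501A set (adjusted p from 0.055 to 0.17 over the 4 sets left out), and for Itga5 the series cannot be told apart from the share of fibroblast-like cells, 0% of each AG set and 87.3% and 81.2% of the GHA501A sets.

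The classes were then compared within GHA501A, which holds both. The classes were cut on marker genes of the same cells, none of them an integrin, and each class in each set gave 1 value, fitted with limma together with the AG sets and with treatment as a covariate. Itga6 was lower in fibroblast-like cells by 4.47 (SE 0.59, adjusted p = 0.0496). Its means were 4.26 and 6.38 TPM in fibroblast-like cells of the untreated and treated sets and 76.7 and 246 TPM in keratinocyte-like cells. This was 1 of 9 members, against a background of 2.03% of all genes called of which 1.07% were lower and 0.963% higher. Itga3 (-4.40, SE 0.77, adjusted p = 0.079), Itgb4 (-3.79, SE 0.65, adjusted p = 0.078), Itgb6 (-3.41, SE 0.53, adjusted p = 0.066) and Itga2 (-3.25, SE 0.53, adjusted p = 0.070) did not pass, though each had a lower mean in the fibroblast-like cells of both sets. Itga5 differed by 3.05 (SE 1.11, adjusted p = 0.27), with means of 197 and 267 TPM against 9.17 and 75.1 TPM. The last of these means rested on 1 cell at 678 TPM, which held 75.3% of the summed level of the 12 treated keratinocyte-like cells. Their median was 4.47 TPM. Itgb1 (-0.70, SE 0.54) and Itgav (0.43, SE 0.43) had adjusted p-values of 0.58 and 0.68. With the library set as a block, in GHA501A alone, the differences were the same but 0 of 9 members and 0 of all genes passed (before adjustment 5 and 1587 were under 0.05), and Itga6 had an adjusted p of 0.34. The Itga6 call was also lost when either AG set was left out (adjusted p = 0.34) and without a filter on low genes (0.091).

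**Figure D2:**
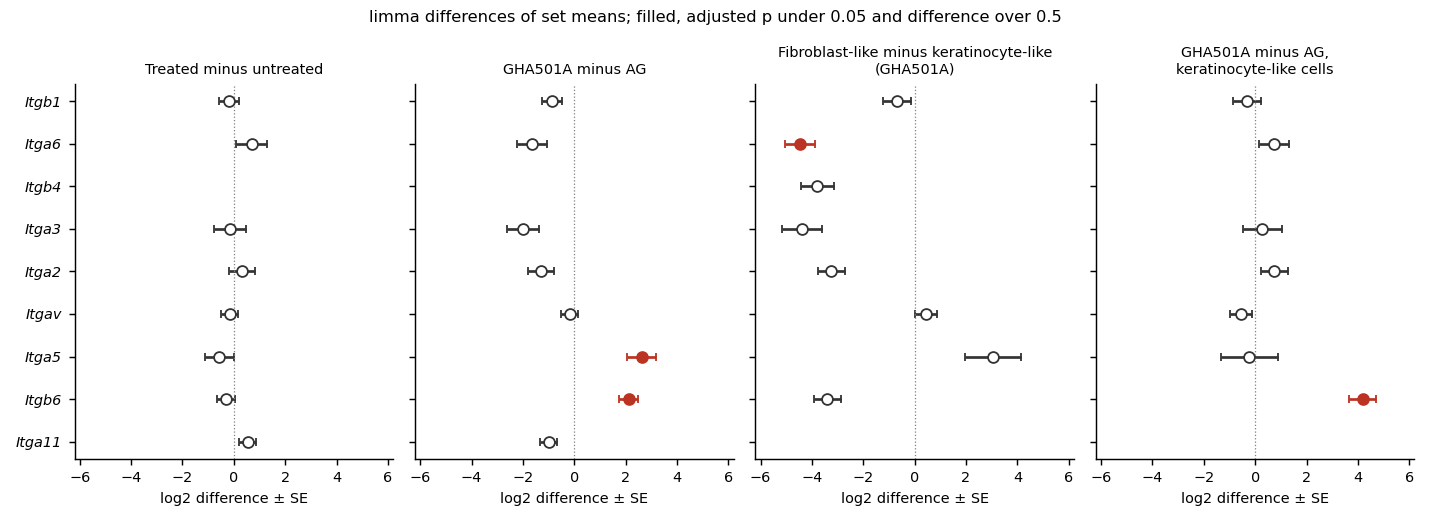
log2 difference with its SE (horizontal axis) of each subunit (vertical axis) in 4 limma comparisons of set means. Filled points passed an adjusted p of 0.05 and a difference over 0.5: Itga5 and Itgb6 between series, Itga6 between classes and Itgb6 between keratinocyte-like cells of the series. Itgb4 and Itga11 are left out where 1 group was listed at 0.

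Keratinocyte-like cells were compared between series, although they were not alike in fibroblast genes. Col1a1 exceeded 1 TPM in 21 of 21 such GHA501A cells and 44 of 130 AG cells, and Col3a1 in 18 and 16, and the part of this in the results was not tested. Itgb6 was higher in GHA501A by 4.19 (SE 0.53, limma adjusted p = 0.011), with means of 21.8 and 14.6 TPM against 0.010 and 0.053 TPM. Itgb6 exceeded 1 TPM in only 2 AG cells, so the size depends on the pseudocount (7.11 with 0.1), and whether the AG processing bears on it, as for Itgb4, was not tested. Itgb4, listed at 0 in AG, was the other called member, so that 2 of 9 were called, both higher, against a background of 17.9% called, 11% higher and 6.97% lower. The other subunits of these cells did not pass. Itga6 differed by 0.74 (SE 0.59, adjusted p = 0.45), Itga2 by 0.75 (SE 0.53, adjusted p = 0.39), Itga3 by 0.28 (SE 0.77, adjusted p = 0.83) and Itga5 by -0.22 (SE 1.11, adjusted p = 0.91). Both calls were lost without either AG set. A p that misses the threshold does not show that the levels are alike, and only 9 and 12 GHA501A cells stand behind these means.

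Alpha and beta partners were then read in the same cell. Itgb1 exceeded 1 TPM in 269 of 270 cells, so shares for pairs with Itgb1 nearly repeat the detection of the alpha chain. They carry little about pairing. Itga6 and Itgb1 were both over 1 TPM in 96.2% of AG cells (95% Wilson interval 91.3 to 98.3%) and in 21 of 21 GHA501A keratinocyte-like cells (84.5 to 100%), against 50 fibroblast-like cells (42.4%, 33.8 to 51.4%). Itga6 and Itgb4, the hemidesmosomal pair, were found together in 16 of 21 GHA501A keratinocyte-like cells (76.2%, 54.9 to 89.4%) and in 1 fibroblast-like cell (0.847%, 0.150 to 4.64%). Where Itgb4 exceeded 1 TPM in the keratinocyte-like cells, Itga6 was at a median of 6.42 times its level. Itga5 and Itgb1, the fibronectin receptor, were found together in 97.5% of fibroblast-like cells (92.8 to 99.1%), 12 of 21 GHA501A keratinocyte-like cells (57.1%) and 71 of 130 AG cells (54.6%). The ratio of Itga5 to Itgb1 had a median of 1.08 in fibroblast-like cells, 0.011 in GHA501A keratinocyte-like cells and 0.009 in AG cells. Itga3 and Itgb1 were found together in 81.5% of AG, 100% of GHA501A keratinocyte-like and 22.03% of fibroblast-like cells. Itgav and Itgb1 were found together in 98.5%, 95.2% and 100% of the same groups. Itgav and Itgb6 were together in 2 AG cells, 9 GHA501A keratinocyte-like cells and 2 fibroblast-like cells.

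**Figure D3:**
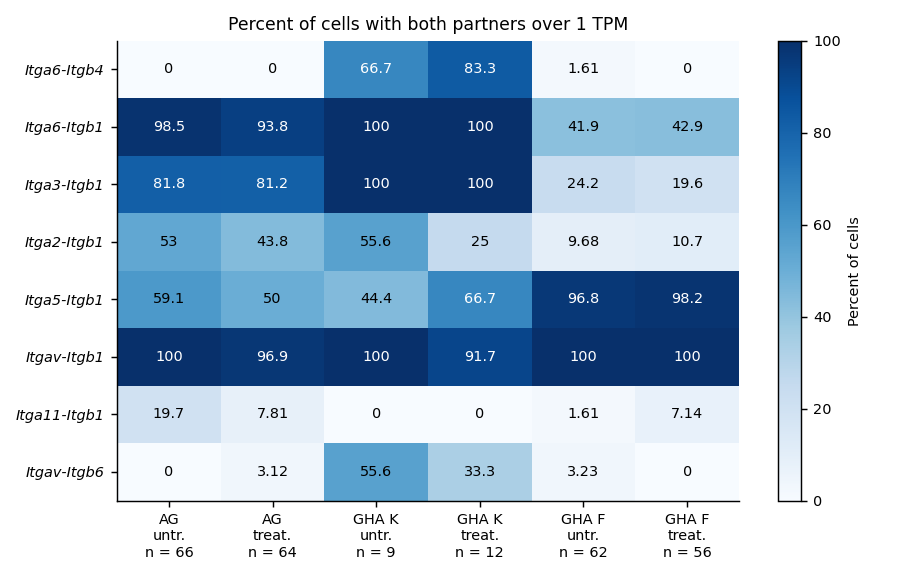
Percent of cells (colour and number in each field) with both partners over 1 TPM, for 8 alpha and beta pairs (vertical axis) in 6 groups of cells (horizontal axis; K, keratinocyte-like; F, fibroblast-like). Itga6-Itgb4 is found in 66.7% and 83.3% of K cells and 0% of AG cells, and Itga5-Itgb1 in 96.8% and 98.2% of F cells. Rows with Itgb1 mainly show detection of the alpha chain.

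The alpha chain with the highest TPM differed by class. Among AG cells it was Itga6 in 56 of 130 (43.1%), Itga3 in 23, Itgav in 23, Itga5 in 17, Itga2 in 10 and Itga11 in 1. In GHA501A keratinocyte-like cells it was Itga6 in 11 of 21 (52.4%) and Itga3 in 6. In fibroblast-like cells it was Itga5 in 89 (75.4%, Wilson interval 66.9 to 82.3%), Itgav in 28 and Itga6 in 1. Itga6 exceeded Itga5 in 80% of AG cells, in 19 of 21 GHA501A keratinocyte-like cells and in 3 fibroblast-like cells. Both chains were over 10 TPM together in 42 AG, 5 keratinocyte-like and 15 fibroblast-like GHA501A cells, so the chains were not exclusive of each other. Of the 6 alpha chains, a median of 4 exceeded 1 TPM per AG cell, 4 per GHA501A keratinocyte-like cell and 3 per fibroblast-like cell. The summed alpha level had a median of 0.829 times Itgb1 in AG, 1.39 times in GHA501A keratinocyte-like and 1.63 times in fibroblast-like cells. In untreated and treated sets these medians were 0.789 and 1.09, 1.17 and 1.77, and 1.56 and 1.81. The order of the groups thus did not hold between all sets.

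**Figure D4:**
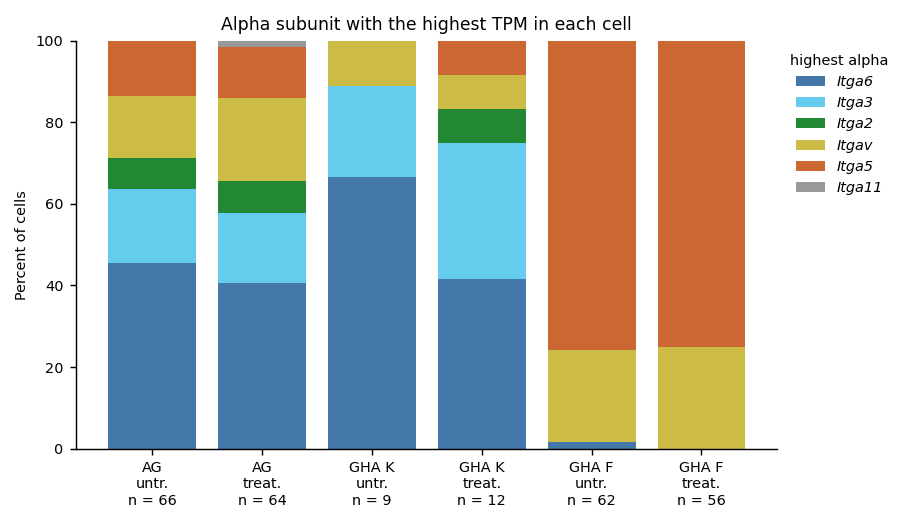
Percent of cells (vertical axis, stacked to 100) in which each alpha subunit had the highest TPM, in 6 groups of cells (horizontal axis; K, keratinocyte-like; F, fibroblast-like; n, cells). Itga6 leads in 45.5% and 40.6% of AG cells and Itga5 in 75.8% and 75% of F cells.

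**Figure D5:**
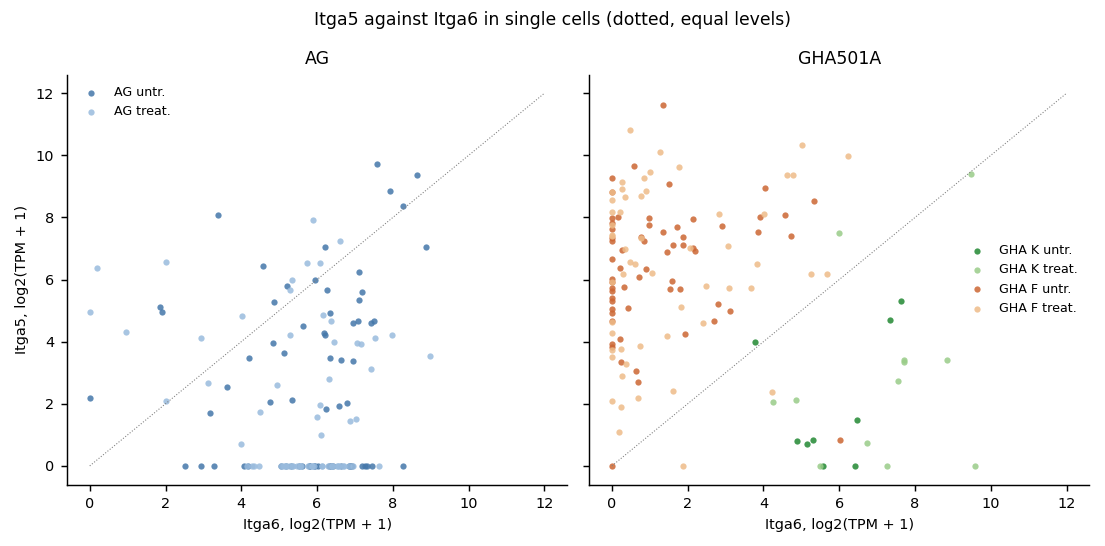
Itga5 (vertical axis) against Itga6 (horizontal axis) as log2(TPM + 1), 1 point per cell, for AG and GHA501A, with the line of equal levels dotted. Only 3 F cells lie below the line, as do 19 of 21 K cells.

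Levels of partners were compared within each set. The Spearman correlation of Itga6 with Itgb1 was 0.28 and 0.30 in untreated and treated AG cells and 0.36 and 0.29 in GHA501A cells, with a mean of 0.31. Within the GHA501A classes it was less even, at 0.17 and 0.63 in untreated and treated keratinocyte-like cells and 0.33 and 0.13 in fibroblast-like cells. It was 0.45 and 0.33 for Itga6 with Itgb4 in the GHA501A sets, which hold both classes, and the Pearson correlation of log2(TPM + 1) was 0.63 and 0.62. Within the keratinocyte-like cells alone these were 0.38 (9 cells) and 0.03 (12 cells), and within fibroblast-like cells 0.05 and -0.24. Itgav with Itgb1 gave 0.38 and 0.28 in AG, and -0.15 and 0.09 in GHA501A. Itga5 with Itgb1 gave between -0.01 and 0.15 over the 4 sets. Within the GHA501A classes this pair gave 0.31 and 0.30 in untreated and treated fibroblast-like cells, and -0.28 and 0.23 in keratinocyte-like cells. Cells of a set share a library set and a total of TPM, so these are descriptions with no test.

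The genes most like a subunit were taken as those with the highest mean Pearson correlation of log2(TPM + 1) within the 4 sets, among 8290 genes over 1 TPM in at least 10% of the cells of every set. For Itga6 these were Col17a1 (mean 0.67, from 0.52 to 0.77), the hemidesmosomal collagen, Lamb3 (0.55), a chain of laminin-332, and Dsp (0.54), the desmosomal plaque protein that is also a marker in the class score. For Itga3 they were Krt18 (0.49, from 0.17 to 0.72), Ptprf (0.48, from 0.12 to 0.83) and Lypd3 (0.48, from 0.30 to 0.65), which varied widely between sets. For Itga5 they were Col6a1 (0.42), Plod1 (0.37), an enzyme of collagen hydroxylation, and Col1a1 (0.37, from 0.02 to 0.57), also a class marker. For Itgb1 they were Aff4 (0.43), Ctsd (0.37) and Jag1 (0.37). For Itgav they were Frs2 (0.42), Ppp3ca (0.42) and Rab10 (0.38), and for Itga2 Upp1, Tgfa and Sh2d5, at 0.31 to 0.32. The GHA501A sets hold both classes, which differ in level for some of these genes. Col17a1 had a mean of 272.8 TPM in GHA501A keratinocyte-like and 1.03 TPM in fibroblast-like cells. The part of the class mix in these correlations was not tested.

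Genes that work with integrins were counted in 4 lists. Of 14 hemidesmosome and basement membrane genes, 2 were lower and 0 higher in fibroblast-like than in keratinocyte-like GHA501A cells: Col17a1 (-6.64, SE 0.74, limma adjusted p = 0.039) and Lama3 (-5.74, SE 0.54, adjusted p = 0.031), which encodes the alpha chain of laminin-332. Over all genes 2.03% were called, 1.07% lower and 0.963% higher. The median of the list was -0.05 against 0.11 over all genes. Of 17 adhesion adaptors and kinases, 1 was lower: Fermt1 (-4.17, SE 0.37, adjusted p = 0.031), the kindlin of epithelia. Of 9 interstitial matrix ligands, 1 was higher, Col1a1, which had served to set the classes, and none of 9 other integrin subunits passed (limma, 1 with an unadjusted p under 0.05). With the library set as a block, 0 genes of these lists passed.

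Between series, the hemidesmosome and basement membrane list had 6 genes higher in GHA501A and 1 lower of 14, where 18.2% of all genes were higher and 10.8% lower. Several of the genes below were nearly missing from AG, so their differences depend on the pseudocount and are not bounds, and whether processing bears on them was not tested. Over 1 TPM in AG were Ilk in 1, Spp1 in 3, Plec in 4 and Cd151 in 8 of 130 cells. Plec (5.71, SE 0.33, limma adjusted p = 0.0018), Nid1 (4.61, SE 0.43, adjusted p = 0.0031), a basement membrane linker, and Cd151 (3.69, SE 0.35, adjusted p = 0.0032), a tetraspanin partner of laminin-binding integrins, were higher, and Lama3 was lower (-2.99, SE 0.59, adjusted p = 0.024). Among adaptors and kinases, 3 were higher and 2 lower of 17, a share close to the 29% of all genes called, led by Ilk (6.43, SE 0.33, adjusted p = 0.0018) and Lims1 (4.48, SE 0.40, adjusted p = 0.0028), its partner in the adhesion complex. Matrix ligands had 5 higher and 1 lower of 9, led by Spp1 (10.73, SE 0.33, adjusted p = 0.0018), the integrin ligand osteopontin, which exceeded 1 TPM in 140 of 140 GHA501A cells. Of the other integrin subunits 2 were higher and 1 lower of 9: Itgb3 (2.17, SE 0.51, adjusted p = 0.038) and Itgb7 (1.86, SE 0.35, adjusted p = 0.021) were higher, and Itga4 (-2.33, SE 0.33, adjusted p = 0.0095) was lower. In keratinocyte-like cells alone Plec, Cd151, Ilk, Lims1, Spp1 and Itgb7 were still called higher and Itga4 lower. Of these, Plec, Cd151, Ilk and Spp1 are the genes nearly missing from AG. Lama3 (-0.40, limma adjusted p = 0.66), Nid1 (1.72, adjusted p = 0.078) and Itgb3 (0.79, adjusted p = 0.74) were no longer called. For treatment, limma called 0 genes of these lists, and 0 were under 0.05 before adjustment.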

How the data were processed

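Single cells were captured on a microfluidic chip and sequenced from full-length cDNA. Per the labels and the methods, the authors trimmed reads with cutadapt, aligned them to GRCm38 with TopHat, counted them per gene with featureCounts, and deposited TPM values for 14145 genes (versions are not given in the sources used here). Of the columns, 278 matched a label and 16 others were not used. From the TPM, means per library set, or per class within a set with at least 5 cells, were taken as log2(mean TPM + 1) for the 12355 genes that exceeded 1 TPM in over 5 cells. They were fitted with limma 3.58.1 (R 4.3.3, two-sided moderated test, Benjamini-Hochberg adjustment over all genes). Calls needed an adjusted p under 0.05 and an absolute log2 difference over 0.5. The fit was tested on simulated data. Other steps used Python 3.11.15, pandas 2.3.3 and scipy 1.17.1, with positions from GENCODE M21 and promoters from RefSeq. Alternatives were another pseudocount (0.1), other filters, scaling and summaries, the 8 conflicting cells, cells with at least 4000 genes, other covariates and classes, and each set left out. All 10 members are named. From each other list up to 4 called genes with the largest difference are named, with Ilk and Plec also given by detection after their values were seen. The members and lists were chosen with earlier results of these data known.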

Additional observations from a re-analysis of the deposited data

Results flagged for a closer look

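For 6 members the treated minus untreated difference on the log2(mean TPM + 1) scale had opposite signs in AG and GHA501A. It was -0.69 in AG and 0.31 in GHA501A for Itgb1, -0.36 and 1.76 for Itga6, -1.26 and 0.99 for Itga3, -0.52 and 1.17 for Itga2, -1.55 and 0.40 for Itga5, and 0.061 and -0.67 for Itgb6. Each series has 1 treated and 1 untreated set, so the difference between series was not tested. The AG value of Itgb6 lies between set means of 0.010 and 0.053 TPM.

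Among the 8 AG cells with conflicting labels, which entered only alternative fits, 1 had Itgb4 at 0.876 TPM. The 130 AG cells that were analysed were all listed at 0 for this gene.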

How the results depend on the processing

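Treatment gave 0 called members and 0 called genes under every alternative run. Members called between series (2 of 9) numbered 1 with genes over 1 TPM in at least 10% of cells (Itga5, since Itgb6 was not tested), 1 with no filter (Itgb6), 5 with the mean of log2(TPM + 1), which called 5539 genes in place of 3580, and from 0 (without AG_untreated or AG_treated) to 2 when a set was left out, with 1023 to 2229 genes called. Those fits had no replicate block. Without the block and with all sets, 2 members and 3853 genes were called. Between classes (1 of 9 members, 251 genes), 0 members and 0 genes were called with no filter, with the library set as replicate block in GHA501A, with k-means classes, and without any 1 set. Adding the 8 cells by label or by name prefix gave 0 members. The mean of log2(TPM + 1) gave 3 members, 1 higher and 2 lower in fibroblast-like cells. No treatment covariate gave 4 members, all lower, and 527 genes. Leaving out a GHA501A set left no residual degrees of freedom, so it was tested without the covariate, as chosen after seeing the data. In keratinocyte-like cells between series (2 of 9 members, 2216 genes), 0 members were called with the 10% filter, which tests neither gene, 1 with k-means classes (Itga5), and from 0 (without AG_untreated or AG_treated) to 2 without a set, with 0 to 2748 genes. With a pseudocount of 0.1, 3 members were called in each of the comparisons between series, with Itga11 lower in both. The mean correlation of Itga6 with Itgb1 was 0.35 by Pearson, from 0.31, and that of Itga6 with Itgb4 was 0.62, from 0.39, and 0.24 with the 8 cells added by label, where the treated AG set gains a value from 1 cell with Itgb4.

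K-means did not recover the marker classes: of 28 cells in its keratinocyte-like cluster, 22 were fibroblast-like by score. Under it, class differences turned for Itga5 (-2.12), Itgav (-1.54), Itgb6 (1.94), Col1a1 (-0.95), Col17a1 (0.026) and Lama3 (0.0071), and keratinocyte-like differences between series for Itga2 (-1.06), Itga3 (-1.32), Itga5 (4.02), Itga6 (-1.59), Itgav (0.91) and Rsu1 (0.12). Uncalled treatment differences turned with the mean of log2(TPM + 1) for Itga11 (-0.037), Itga2 (-0.15) and Itga3 (0.020). With a set left out, uncalled treatment differences ranged from -2.9e-05 to 1.07 for Itga11, -0.74 to 1.39 for Itga2, -1.69 to 1.41 for Itga3, -2.38 to 1.23 for Itga5, -0.65 to 2.05 for Itga6, -0.31 to 0.0046 for Itgav, -0.87 to 0.49 for Itgb1 and -1.54 to 0.94 for Itgb6. Uncalled differences between keratinocyte-like cells then ranged from -0.086 to 1.59 for Itga2, -0.97 to 1.54 for Itga3, -2.45 to 2.004 for Itga5, -0.27 to 1.75 for Itga6 and -1.20 to 0.55 for Itgb1. The causes were not tested.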
